A study of Mus musculus with 7 samples.

Results

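A set of 10 genes of interferon signalling was followed in 7 mouse tumours: the ligands Ifng and Ifnb1, the receptor chains Ifngr1, Ifngr2, Ifnar1 and Ifnar2, the kinases Jak1, Jak2 and Tyk2, and the inhibitor Socs1. They were chosen by gene symbol, and all 10 were found among the 24421 genes of the count table. Polyadenylated RNA of tumours taken at week 4 was sequenced from 4 mice treated with anti-Lair1 plus anti-PD-1 (anti-LAIR1 group) and 3 mice treated with the control antibody anti-KLH plus anti-PD-1 (control group). Anti-PD-1 blocks an inhibitory receptor of T cells, and anti-LAIR1 blocks LAIR1, through which collagen restrains leukocytes. All 7 mice therefore had PD-1 blockade, and the question is what changes when LAIR1 is blocked as well.

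The series text describes 2 kinds of lung cancer mice, and the labels do not say which gave these tumours. One kind was 129/Sv mice of 6 to 8 weeks carrying 344SQ cells under the skin, a line derived from K-rasLA1/+p53R172H∆g/+ mice, dosed with anti-PD-1 at 8 mg/kg and anti-LAIR at 10 mg/kg. The other was the engineered model KrasLSL-G12D/p53fl/fl, infected with adenovirus-cre in the airway at 3 to 4 months and treated 2 months later. The mouse names begin with WTSV in the whole anti-LAIR1 group and with LOHM or KWM in the control group, so treatment and whatever these prefixes stand for cannot be told apart. Each mouse gave 1 library. Total counts were 11480651 to 15347403 in the anti-LAIR1 group and 9879762 to 26255727 in the control group. The epithelial keratin genes Krt8, Krt18 and Krt19 and the lung regulator Nkx2-1 were plentiful in both groups, as was the surfactant gene Sftpb at means of 1754 CPM in the anti-LAIR1 group and 1361 CPM in the control group (CPM, counts of a gene per 1e+06 counts of its library after TMM scaling). Another surfactant gene, Sftpc, averaged 0.220 CPM in the anti-LAIR1 group and 0.208 CPM in the control group.

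Interferons are secreted proteins that cells release on sensing infection or, for interferon gamma, on activation of T cells and NK cells. Type I interferons such as interferon beta bind a receptor of IFNAR1 and IFNAR2, which carry the kinases TYK2 and JAK1, and interferon gamma binds a receptor of IFNGR1 and IFNGR2, which carry JAK1 and JAK2. The kinases phosphorylate STAT proteins, which enter the nucleus and switch on interferon target genes. One of those targets is Socs1, whose protein binds the kinases and shuts the signal off. In tumours, interferon gamma from infiltrating T cells is known for raising antigen presentation and PD-L1 on neighbouring cells.

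Of the 8 genes with enough counts to be tested, Socs1 differed most between the groups in size, at 2.08 times the control level in the anti-LAIR1 tumours. Ifnar2 was 1.19 times the control level, and the other 3 receptor chains and the 3 kinases lay within 0.927 and 1.09 times it. No gene of the 10 passed the adjusted test. Both ligands were so sparsely counted that neither entered the test across genes. Ifnb1 did not exceed 3 counts in any library, and Ifng exceeded 3 counts in 4 of 4 anti-LAIR1 libraries and 1 of 3 control libraries.

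In edgeR's quasi-likelihood test with Benjamini-Hochberg adjustment, 0 of the 13545 genes tested (0%) had an adjusted p under 0.05, and so 0 of the 8 tested genes of the set did. At an unadjusted p under 0.05, 2 of these 8 genes, Socs1 and Ifnar2, were higher with anti-LAIR1 and 0 were lower, beside 476 (3.51%) of all genes tested that were higher and 221 (1.63%) that were lower. DESeq2 called 54 genes (0.388% of those it gave an adjusted p) and limma-voom called 0, with 0 of the set in either. Fold changes were above 0 on the log2 scale for 6 of the 8, with a median of 0.071, against 49.1% of all genes tested and a median of -0.0028.

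**Figure D1:**
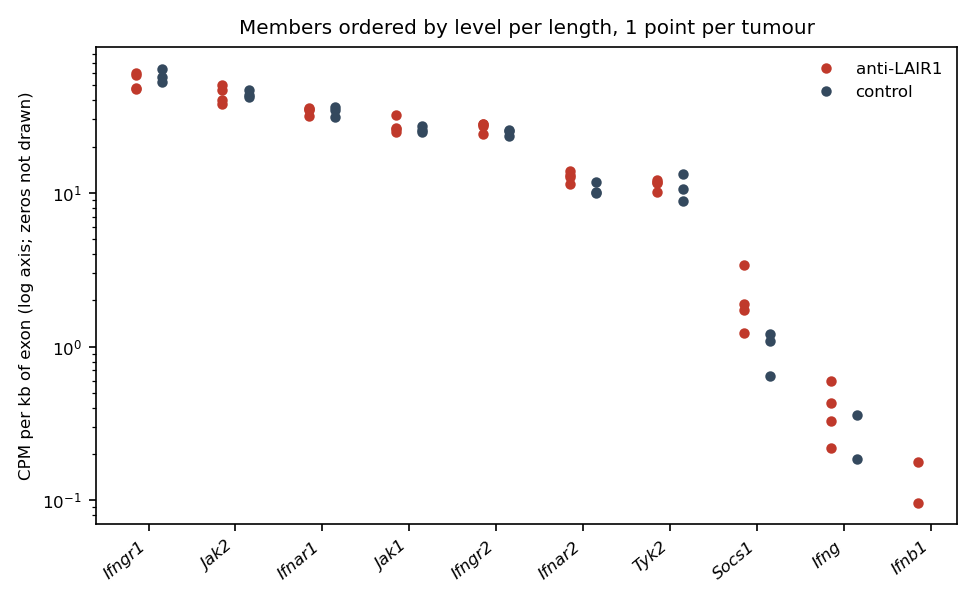
Levels of the 10 genes as CPM per kb of exon on a log axis, ordered from the highest to the lowest mean, with 1 point per tumour, anti-LAIR1 in red on the left of each pair and control in dark blue. The receptors and kinases lie at 8.82 or more, Socs1 lies from 0.643 to 3.37, and Ifng and Ifnb1 lie lower, with libraries at 0 left off the axis.

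Divided by exon length, the receptors and kinases were far more abundant than the inhibitor and the ligands. Lengths were those of the joined exons in the GENCODE M21 basic annotation, which may differ from the annotation used for counting. Over all 7 libraries Ifngr1, the ligand-binding chain of the interferon gamma receptor, had the highest level at a mean of 55.4 CPM per kb. Jak2, the kinase on IFNGR2, followed at 43.8, and Ifnar1, the chain that carries TYK2, at 34.1 CPM per kb. Each of these 3 was above the next in the order in 7 of 7 libraries.

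Jak1, the kinase that serves both receptors, and Ifngr2, the second chain of the interferon gamma receptor, had means of 26.7 and 26.04 CPM per kb, and Jak1 was the higher of them in only 4 of 7 libraries. Ifnar2, the chain that carries JAK1, and Tyk2 had means of 11.8 and 11.2 CPM per kb, with Ifnar2 above Tyk2 in 5 of 7 libraries. Their order turned round when the longest transcript was used in place of the joined exons, with 12.3 for Ifnar2 and 12.8 for Tyk2. Neither of these pairs was separated beyond the spread of its libraries. Socs1 had a mean of 1.59, Ifng of 0.303 and Ifnb1 of 0.0392 CPM per kb.

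**Figure D2:**
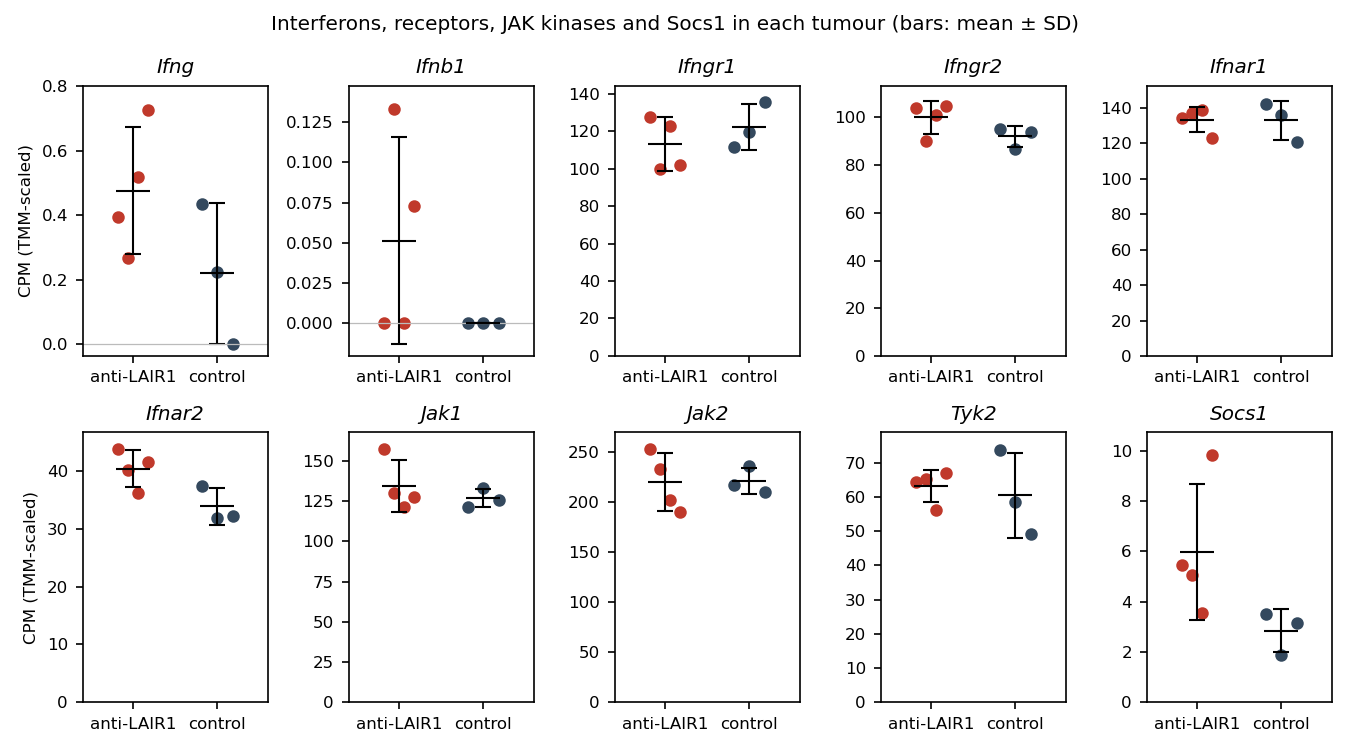
CPM of each gene in each tumour, anti-LAIR1 in red and control in dark blue, points in the order of replicates from left to right, with the mean and SD of each group as bars. Socs1 is the 1 gene whose groups do not overlap, by the margin between 3.54 and 3.52 CPM, and the y axes differ between panels.

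Ifng, which encodes interferon gamma, lies on chromosome 10 (118441046 to 118445894, GRCm38). In the GENCODE annotation its exons overlap those of Gm49751 on the same strand, which is not among the counted genes. Ifng had 6, 4, 6 and 10 counts in anti-LAIR1 replicates 1 to 4, against 11, 3 and 0 counts in control replicates 1 to 3. The control library with 11 counts was also the deepest, and its level of 0.436 CPM lay inside the anti-LAIR1 range of 0.266 to 0.727 CPM, so the groups overlapped.

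Ifng averaged 0.476 ± 0.196 CPM in the anti-LAIR1 group (SD, n = 4) and 0.22 ± 0.218 CPM in the control group (SD, n = 3). The difference of 0.256 CPM did not exceed the spread between libraries (exact permutation test over 35 splits, two-sided p = 0.171, where the smallest possible is 0.0286). It was 0.0509 CPM with all libraries thinned to 1 depth in 1 random draw. With counts this low, a single draw carries sampling noise of its own. The difference was 0.147 CPM without control replicate 3, the library with 0 counts. Summed over a group, 26 counts gave 0.468 CPM with an exact Poisson 95% interval of 0.306 to 0.686 with anti-LAIR1, and 14 counts gave 0.289 CPM with an interval of 0.158 to 0.485 in controls, intervals that cover counting error only. In 1 library, 3 counts are worth from 0.119 to 0.305 CPM, so several Ifng values stood close to what a handful of reads gives.

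Markers of the cells that make interferon gamma had fold changes above 0, and 0 of them passed the adjusted test in edgeR or DESeq2. The 11 T cell genes summed to 9.41 to 45.8 CPM in anti-LAIR1 tumours and 5.31 to 18.6 CPM in control tumours, which overlap. Their 9 tested members all had positive fold changes with a median of 1.40 on the log2 scale, and 3 of the 9 had an unadjusted p under 0.05, beside 3.51% of all genes tested that were higher. The 7 NK cell genes summed to 4.84 to 12.7 CPM in anti-LAIR1 tumours and 1.65 to 3.48 CPM in controls, and their 3 tested members had positive fold changes, each with an unadjusted p under 0.05. By the mean of log2 CPM, which weights each gene equally, the NK cell groups overlapped. Anti-LAIR1 replicate 3 lay at -1.63, below control replicates 1 and 3 at -1.18 and -1.50. No listed gene of either type was at 0 in every library. Ncr1, an activating receptor that defines NK cells, did not exceed 3 counts in any library, with 0, 2, 0 and 3 counts in anti-LAIR1 replicates 1 to 4 and 0 in all 3 controls, too few to compare. The part of these cells in the Ifng values was not tested, and in bulk tumour RNA more cells of a type cannot be told apart from more RNA per cell.

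Ifnb1, which encodes interferon beta (chromosome 4, 88522025 to 88522794), had 0, 2, 0 and 1 counts in the anti-LAIR1 libraries and 0 counts in all 3 control libraries. At 3 counts in all against 0, a difference was not detectable at this depth (exact permutation test, two-sided p = 0.429), and no fold is given. With so many libraries at 0, no split of these values could give a p under 0.05, so the test cannot decide. The exact 95% Poisson intervals of the summed counts were 0.0111 to 0.158 CPM in anti-LAIR1 tumours and 0 to 0.0761 CPM in controls. The 6 markers of plasmacytoid dendritic cells, which are known for making type I interferon, summed to 1.12 to 4.80 CPM in anti-LAIR1 tumours and 1.39 to 2.04 CPM in controls, and much of it was Ly6d, at means of 1.48 CPM in anti-LAIR1 tumours and 1.56 CPM in controls. With each marker weighted equally, as the mean of log2 CPM, the groups did not overlap, at -1.83 to -0.68 in anti-LAIR1 tumours and -2.04 to -1.90 in controls. Apart from Ly6d the markers had at most 13 counts in a library, so their log2 CPM leaned heavily on the prior count of 2. Ly6d was the 1 marker with enough counts to be tested and did not pass, and the part of these cells in the Ifnb1 counts was not tested.

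Of 19 listed genes of the alpha, epsilon, kappa, zeta and lambda interferons, 16 had 0 counts in all 7 libraries. Ifna16 had at most 2 counts and Ifna5 at most 1 count in a library. Ifne, an interferon made by epithelia of the reproductive tract, was the 1 gene of the list that entered the test, with 12, 8, 6 and 13 counts in anti-LAIR1 replicates 1 to 4, against 19, 28 and 9 counts in control replicates 1 to 3. Its level of 0.696 ± 0.207 CPM with anti-LAIR1 (SD, n = 4) and 1.25 ± 0.732 CPM in controls (SD, n = 3) did not pass the test (log2 fold change -0.82, SE 0.48, edgeR adjusted p = 0.981). Alpha interferon genes are close copies of one another, so reads that match several could have been lost in counting.

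**Figure D3:**
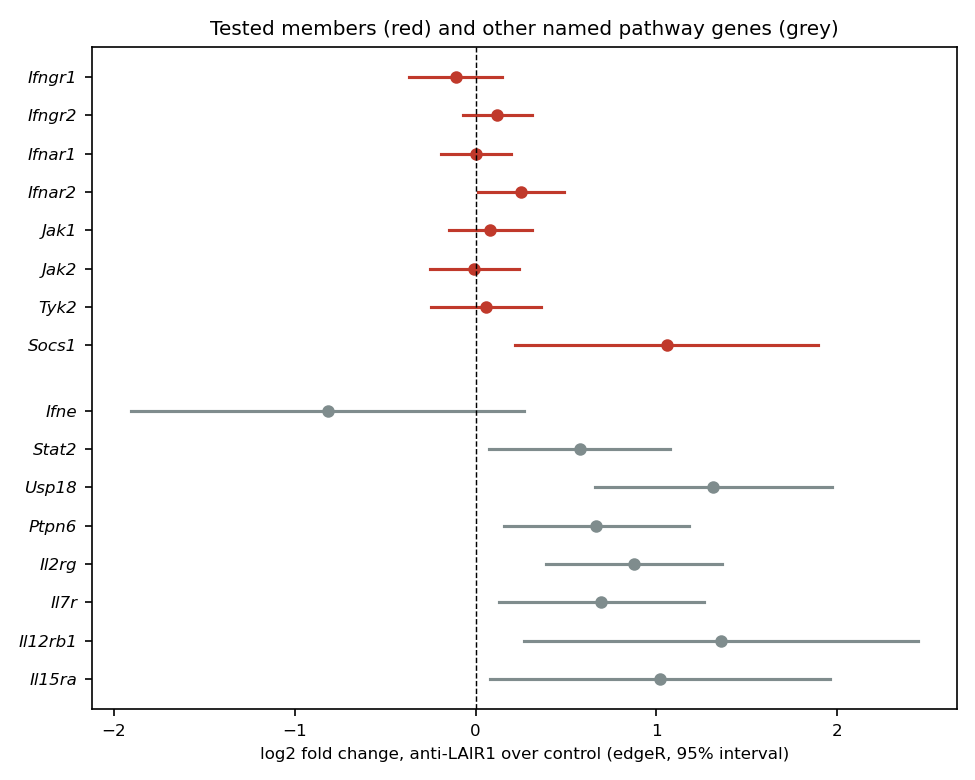
Log2 fold change of anti-LAIR1 over control with its 95% interval from edgeR, for the 8 tested genes of the set in red and 8 other pathway genes in grey, with a dashed line at 0. The intervals of Ifngr1, Ifngr2, Ifnar1, Jak1, Jak2 and Tyk2 include 0 and are narrow, and those of Socs1 and Ifnar2 lie above 0 before adjustment over all genes.

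The 4 receptor chains were counted from 316 times upward in every library, so counting error was small for them. Ifnar1 (chromosome 16, 91485032 to 91510523) stood at 134, 137, 139 and 123 CPM in anti-LAIR1 replicates 1 to 4, against 142, 136 and 121 CPM in control replicates 1 to 3. The groups lay on top of each other, and the ratio of anti-LAIR1 to control was 1.00 with a 95% interval of 0.876 to 1.15 (log2 fold change 0.0023, SE 0.086, edgeR adjusted p = 0.99997). Ifnar1 had the smallest spread of the 10 genes, with a coefficient of variation of 6.07% over the 7 libraries.

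Ifnar2 (chromosome 16, 91372783 to 91405589) stood at 43.7, 40.1, 36.2 and 41.4 CPM in anti-LAIR1 replicates 1 to 4, against 37.4, 31.9 and 32.2 CPM in control replicates 1 to 3. Only anti-LAIR1 replicate 3 fell below the highest control library, replicate 1. The averages were 40.4 ± 3.16 CPM with anti-LAIR1 (SD, n = 4) and 33.8 ± 3.12 CPM in controls (SD, n = 3). The log2 fold change was 0.25 with a 95% interval of 0.015 to 0.49 (unadjusted p = 0.0395, edgeR adjusted p = 0.953). The groups separated with libraries scaled by their totals (36.5 CPM at the lowest with anti-LAIR1 and 35.99 CPM at the highest in controls) and overlapped with DESeq2 size factors. Counts per gene do not tell the membrane form of this chain from its soluble form. In the GENCODE annotation the exons of Ifnar2 overlap those of Gm21970 on the same strand, which is not among the counted genes.

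Within a library, the ratio of 2 genes does not depend on how libraries are scaled. The log2 count ratio of Ifnar2 to Ifnar1 was -1.62, -1.77, -1.94 and -1.57 in anti-LAIR1 replicates 1 to 4, against -1.93, -2.09 and -1.91 in control replicates 1 to 3. The ratio was higher in 3 anti-LAIR1 libraries than in any control, and replicate 3 lay among the controls. For the interferon gamma receptor, the log2 count ratio of Ifngr2 to Ifngr1 averaged -0.17 ± 0.15 with anti-LAIR1 (SD, n = 4) and -0.41 ± 0.15 in controls (SD, n = 3), with overlapping groups.

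Ifngr1 (chromosome 10, 19591949 to 19610229) stood at 128, 100.04, 123 and 102 CPM in anti-LAIR1 replicates 1 to 4, against 112, 120 and 135 CPM in control replicates 1 to 3. The ratio of the groups was 0.927 with a 95% interval of 0.776 to 1.11 (edgeR adjusted p = 0.99997). Ifngr2 (chromosome 16, 91547059 to 91564007) stood at 104, 90.0, 101 and 105 CPM with anti-LAIR1, against 95.1, 86.9 and 94.1 CPM in controls. In the anti-LAIR1 group 3 of the 4 libraries were above all controls for Ifngr2, and the ratio was 1.09 with a 95% interval of 0.952 to 1.24 (edgeR adjusted p = 0.99997). For both genes the interval excludes a halving or a doubling of the level.

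Of the 4 receptor genes, 3 are neighbours. Ifnar2, Il10rb, Ifnar1 and Ifngr2 are the 4 protein-coding genes within 191.2 kb of chromosome 16 (91372783 to 91564007) in RefSeq's table of GRCm38. Il10rb encodes the chain that the interleukin 10 and lambda interferon receptors share, and it averaged 33.1 ± 3.01 CPM with anti-LAIR1 (SD, n = 4) and 33.1 ± 3.53 CPM in controls (SD, n = 3). Going along the chromosome, the log2 fold changes of the 4 genes were 0.25, -0.0044, 0.0023 and 0.12.

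The 3 kinases showed no difference beyond the spread of the libraries. Jak1 (chromosome 4, 101151974 to 101265282) stood at 157, 130, 121 and 127 CPM in anti-LAIR1 replicates 1 to 4, against 122, 133 and 126 CPM in control replicates 1 to 3, with anti-LAIR1 replicate 1 above the others. Its ratio was 1.06 with a 95% interval of 0.905 to 1.24. Its exons overlap those of Raver2 on the other strand, which had at most 10 counts in a library.

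Jak2 (chromosome 19, 29251803 to 29313095) stood at 253, 233, 202 and 190.2 CPM with anti-LAIR1, against 217, 236 and 210.2 CPM in controls. The anti-LAIR1 libraries spread to both sides of the controls, and the ratio was 0.995 with a 95% interval of 0.839 to 1.18. Tyk2 (chromosome 9, 21104068 to 21131393) stood at 64.5, 65.1, 56.2 and 66.9 CPM with anti-LAIR1, against 73.7, 58.5 and 49.1 CPM in controls. Its highest and its lowest level were both in control libraries, and the ratio was 1.04 with a 95% interval of 0.845 to 1.29. The edgeR adjusted p was 0.99997 for each kinase.

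Socs1 (chromosome 16, 10783808 to 10785536, minus strand) had 83, 76, 41 and 135 counts in anti-LAIR1 replicates 1 to 4, against 89, 25 and 31 counts in control replicates 1 to 3. In CPM this was 5.46, 5.06, 3.54 and 9.81 with anti-LAIR1, against 3.52, 1.87 and 3.16 in controls. Every anti-LAIR1 library was above every control, which was the case for 3.06% of all genes tested, with 2.51% separated the other way. The margin was within counting error, since the lowest anti-LAIR1 library had an exact 95% Poisson interval of 2.54 to 4.80 CPM and the highest control one of 2.83 to 4.34 CPM.

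Socs1 averaged 5.97 ± 2.69 CPM with anti-LAIR1 (SD, n = 4) and 2.85 ± 0.868 CPM in controls (SD, n = 3). On the log2 scale the fold change was 1.06, its SE 0.37, with a 95% interval of 0.22 to 1.89 (unadjusted p = 0.0185, edgeR adjusted p = 0.933; DESeq2 adjusted p = 0.418). Anti-LAIR1 replicate 4 was the highest library, and without it the log2 fold change was 0.71. It was 0.83 without control replicate 2, with an unadjusted p of 0.0734. Of the genes in the set that are above the ligands, Socs1 varied most, with a coefficient of variation of 55.7% over the 7 libraries.

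The bases before the Socs1 start site are shown because they match 1 searched form of the letters that interferon regulatory factors are known to bind. Those before Ifnar2 are shown because that gene also stood higher. The windows are the 250 bases before the RefSeq start site of GRCm38.p6, chr16:10785537-10785786 on the minus strand for Socs1 and chr16:91372533-91372782 on the plus strand for Ifnar2. Capitals mark matches on either strand to the core of the interferon-stimulated response element searched as GAAANNGAA or to the gamma-activated site searched as TTCNNNGAA.
Socs1: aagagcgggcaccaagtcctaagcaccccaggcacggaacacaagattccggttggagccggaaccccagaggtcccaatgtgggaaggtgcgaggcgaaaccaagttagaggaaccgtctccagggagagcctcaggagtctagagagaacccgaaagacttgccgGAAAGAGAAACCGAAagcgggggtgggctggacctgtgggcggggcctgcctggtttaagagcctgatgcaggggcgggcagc
Ifnar2: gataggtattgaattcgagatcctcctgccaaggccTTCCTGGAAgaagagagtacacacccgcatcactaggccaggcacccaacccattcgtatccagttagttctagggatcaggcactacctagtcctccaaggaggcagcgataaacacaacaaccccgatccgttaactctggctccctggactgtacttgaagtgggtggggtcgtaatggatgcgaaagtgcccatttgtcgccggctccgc
Socs1 held 2 matches to the response element that share 3 bases and form a run of 15 bases, from base 83 to base 69 before the start site. Ifnar2 held 1 match to the gamma-activated site, from base 214 to base 206. In the same window, 1 of the 10 genes held the response element as searched, beside 7.12% of 32817 promoters. The gamma-activated site was held by 2 of the 10, Ifng and Ifnar2, beside 7.01%. The search takes only the spacing given, so a gene with 0 matches can still hold such letters. The Ifnb1 window had 0 matches but holds the run gaaaactgaaag, in which the same letters stand further apart. A match describes the letters and does not show binding.

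Leukocyte genes lay on the same side of 0 as Socs1 and Ifnar2, and 0 of 13 passed the adjusted edgeR test. The 13 leukocyte genes summed to 347 to 433 CPM in anti-LAIR1 tumours and 253 to 295 CPM in control tumours, without overlap, and all 13 had positive fold changes with a median of 0.51 on the log2 scale. At an unadjusted p under 0.05, 7 of the 13 were higher, beside 3.51% of all genes tested. DESeq2 called 1, Lcp1, beside 0.388% of all genes it gave an adjusted p. The 10 macrophage genes also had positive fold changes, with sums of 512 to 653 CPM in anti-LAIR1 tumours and 405 to 550 CPM in controls, and so had the 5 endothelial genes, with sums of 95.8 to 111 CPM in anti-LAIR1 tumours and 60.9 to 93.6 CPM in controls. In edgeR 0 genes of these lists passed the adjusted test and DESeq2 called 1, the macrophage gene Csf1r. The macrophage sums overlapped while the endothelial sums did not. By the mean of log2 CPM, which weights each gene equally, this was reversed. Macrophage genes then lay at 4.90 to 5.23 in anti-LAIR1 tumours and 4.52 to 4.78 in controls, without overlap. Endothelial genes overlapped, with anti-LAIR1 replicate 3 at 3.81 and control replicate 3 at 3.87. Each library's mean leukocyte level itself separates the groups, so a fit with it as a covariate tells it from treatment only poorly. In that edgeR fit the log2 fold change of Socs1 was -0.24 (unadjusted p = 0.607) and that of Ifnar2 was 0.0063 (unadjusted p = 0.973). Skeletal muscle genes summed to 83.2 to 120 CPM in anti-LAIR1 replicates 1, 3 and 4 and to 9.98 CPM in replicate 2, against 5.07 to 8.25 CPM in controls, and by the mean of log2 CPM replicate 2 lay below all 3 controls. Of 8 muscle genes 4 were tested, all 4 with an unadjusted p under 0.05, and 0 passed the adjusted edgeR test, while DESeq2 called 2, Ttn and Neb. With the muscle level as a covariate the log2 fold changes were 0.79 for Socs1 and 0.24 for Ifnar2, neither with an unadjusted p under 0.05. The part of leukocytes in the Socs1 and Ifnar2 levels was not tested.

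**Figure D4:**
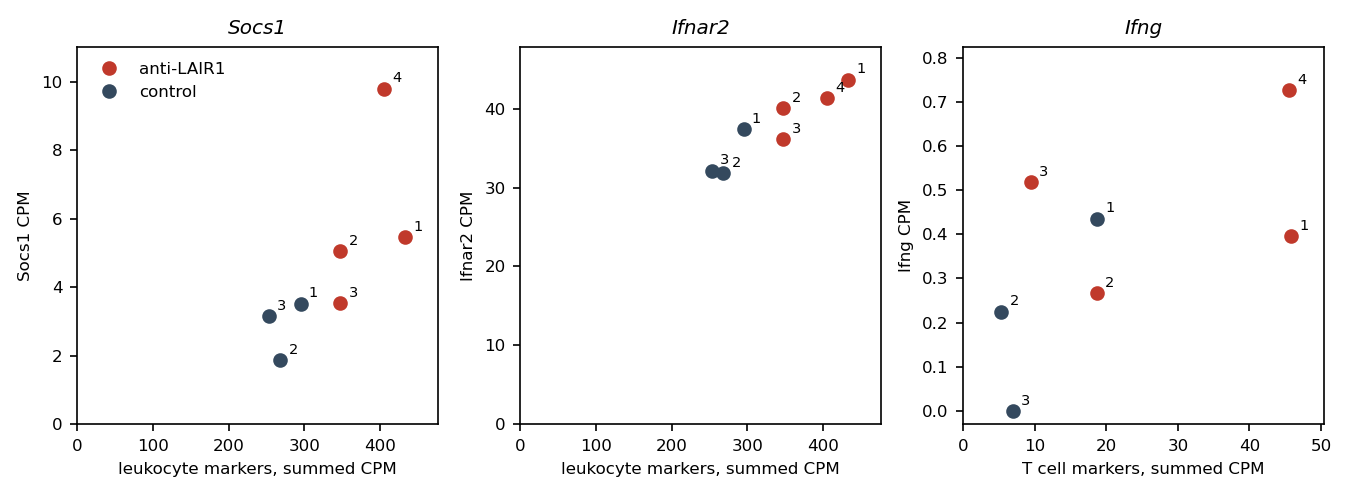
CPM of Socs1 and Ifnar2 against the summed CPM of 13 leukocyte genes, and CPM of Ifng against the summed CPM of 11 T cell genes, 1 point per tumour labelled with its replicate number, anti-LAIR1 in red and control in dark blue. The anti-LAIR1 tumours lie at 347 CPM or more of leukocyte genes and the controls at 295 CPM or less, and the T cell sums of the groups overlap.

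For the 3 tested genes of the set with the smallest p, the genes whose log2 CPM followed them most closely over the 7 libraries were looked up among 12320 genes, as a description with no test. For Socs1 these were Gdpd3, Lgals3bp and Mpi, with Pearson correlations of 0.982, 0.982 and 0.974. For Ifnar2 they were Gbp2b, Stat2 and Gbp2, with 0.994, 0.9898 and 0.9898, and for Ifngr2 they were Crip1, Psca and Naip2, with 0.968, 0.966 and 0.966. With so few libraries, high values were not particular to the named genes. Of the 12320 genes, 96, 171 and 36 exceeded 0.9 for Socs1, Ifnar2 and Ifngr2.

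Under the type I interferon receptor, STAT2 and IRF9 are parts of the complex that carries the signal to the nucleus, and neither gene passed the adjusted test. Stat2 averaged 105 ± 22.3 CPM in anti-LAIR1 tumours (SD, n = 4) and 69.9 ± 19.7 CPM in control tumours (SD, n = 3), with overlapping groups (log2 fold change 0.58, SE 0.22, edgeR adjusted p = 0.938). Irf9 averaged 60.1 ± 12.6 CPM in anti-LAIR1 tumours and 46.7 ± 13.2 CPM in control tumours, also overlapping (log2 fold change 0.36, SE 0.21, edgeR adjusted p = 0.991).

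Of 17 other negative regulators of JAK and STAT signalling, 6 had positive and 11 negative fold changes, with a median of -0.025, and 0 passed the adjusted edgeR test. At an unadjusted p under 0.05, 2 were higher and 0 lower, beside 3.51% and 1.63% of all genes tested. Usp18, which binds IFNAR2 and dampens type I interferon signalling, stood at 11.7, 7.18, 7.25 and 7.48 CPM in anti-LAIR1 replicates 1 to 4, against 4.28, 3.59 and 2.04 CPM in control replicates 1 to 3. All 4 anti-LAIR1 libraries were above the controls (log2 fold change 1.32, SE 0.29, edgeR adjusted p = 0.624), as for 3.06% of all genes tested. DESeq2 called this 1 gene of the list (adjusted p = 0.0164), beside 0.388% of the genes it gave an adjusted p.

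Ptpn6, a phosphatase of blood cells that acts on JAK kinases and also binds the tail of LAIR1, averaged 12.1 ± 3.54 CPM with anti-LAIR1 (SD, n = 4) and 7.68 ± 0.939 CPM in controls (SD, n = 3), without overlap (log2 fold change 0.67, SE 0.23, edgeR adjusted p = 0.932). Ptpn11 of the same list lay lower without overlap, at 157 to 168 CPM in anti-LAIR1 tumours and 174 to 185 CPM in controls. Its log2 fold change was -0.12 (SE 0.071, edgeR adjusted p = 0.980). Of the 17 genes of the list, 2 lay higher and 1 lower without overlap, beside 3.06% and 2.51% of all genes tested. Socs3 and Cish are relatives of Socs1. Socs3, the inhibitor of interleukin 6 signalling, averaged 57.9 ± 9.36 CPM in anti-LAIR1 tumours and 60.6 ± 5.88 CPM in controls, and Cish, an inhibitor induced by STAT5, 18.8 ± 5.53 against 13.9 ± 1.86 CPM. On the log2 scale they differed by -0.067 and 0.44, and neither had an unadjusted p under 0.05.

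Among 27 other receptors that signal through JAK kinases, with JAK3, 24 were tested, 12 on either side of 0 with a median of 0.019. At an unadjusted p under 0.05, 3 were higher and 1 was lower, beside 3.51% and 1.63% of all genes tested, and 0 passed the adjusted test. Of the 24, 3 lay higher and 0 lower without overlap, beside 3.06% and 2.51% of all genes tested. Il2rg, the chain shared by interleukin 2 and related receptors of lymphocytes, averaged 8.71 ± 1.37 CPM with anti-LAIR1 (SD, n = 4) and 4.69 ± 1.01 CPM in controls (SD, n = 3), without overlap (log2 fold change 0.88, SE 0.22, edgeR adjusted p = 0.624). Il7r, the interleukin 7 receptor of T cells, averaged 5.37 ± 1.47 CPM in anti-LAIR1 tumours and 3.31 ± 0.236 CPM in controls (log2 fold change 0.69, SE 0.25, edgeR adjusted p = 0.933).

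Genes upstream of interferon gamma, such as the receptors of interleukins 12, 15 and 18 and the T cell regulators Tbx21 and Eomes, had 10 of 16 members tested. Tbx21 and Eomes were not among these 10, and the groups overlapped for each of the 10. All 10 had positive fold changes with a median of 0.96, 3 had an unadjusted p under 0.05, beside 3.51% of all genes tested that were higher, and 0 passed the adjusted test. The T cell markers, with a median of 1.40 over 9 of 9 positive fold changes, lay on the same side, and their part in these levels was not tested. Il12rb1, a chain of the interleukin 12 receptor, averaged 4.96 ± 2.95 CPM with anti-LAIR1 (SD, n = 4) and 1.91 ± 0.554 CPM in controls (SD, n = 3) (log2 fold change 1.35, SE 0.48, edgeR adjusted p = 0.933). Il15ra, which presents interleukin 15 to lymphocytes, averaged 5.80 ± 2.72 CPM in anti-LAIR1 tumours and 2.92 ± 0.908 CPM in controls (log2 fold change 1.02, SE 0.42, edgeR adjusted p = 0.947). The interleukin 12 genes Il12a and Il12b averaged 0.0346 and 0.0545 CPM with anti-LAIR1, and 0.0513 and 0.0249 CPM in controls, under what 3 counts are worth.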

How the data were processed

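The authors deposited raw read counts per gene symbol, 1 column per mouse, and 0 of its rows lacked a gene. The build was mm10, and the tools named were edgeR 3.40.1, featureCounts 2.0.1, STAR 2.7.6 and Trim Galore, per the submitters' processing notes. Libraries were directional and read from 1 end, per the labels' protocols. Not given in the sources used here are the annotation counted, the use of strand, and how multiply matching reads were handled.

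Genes were kept with filterByExpr at a minimum count of 10 (13545 genes), scaled by TMM and tested in R 4.3.3 with edgeR 4.0.16 (robust quasi-likelihood fit of all 7 libraries, no covariate, adjusted p threshold 0.05). DESeq2 1.42.0 and limma 3.58.1 were alternatives, besides those in the closing section. Log2 CPM used a prior count of 2. The fit was tested on simulated data. No 2 libraries agreed within sampling noise. The labels number no replicates, and replicate numbers follow accession order. Named were all 10 genes, from each pathway list up to 4 genes past the threshold or otherwise the 2 with the smallest p, and for 3 genes their 3 closest followers. Irf9, Socs3, Cish, Ptpn11, Il12a, Il12b, Il10rb, Ifna5, Ifna16 and the marker genes were added with values known. The 10 genes and the lists were chosen with earlier results of these data known. Promoters are RefSeq's of GRCm38.p6, found for 10 of 10 genes, and coordinates are RefSeq's of GRCm38, counted from 1. Figures used matplotlib 3.10.9. The result of 1 gene that the rule named is not reported here.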

Additional observations from a re-analysis of the deposited data

Results flagged for a closer look

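Of 34 sets of 4 anti-LAIR1 values looked at, 2 had 1 library far from the other 3, and chance gives about 1 in 20. For Usp18, replicate 1 at 11.7 CPM was separated from the nearest other library by 0.934 of the whole range of the group. For Il7r, replicate 1 at 7.57 CPM was separated by 0.935 of the range. None of the 10 genes of the set had such a library, and groups of 3 were not examined in this way.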

How the results depend on the processing

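No paired analysis was possible because the labels give no replicate numbers that the groups share. Of 128 log2 fold changes of the 8 tested genes under 16 alternatives each, 109 kept their direction and 19 turned round, and 0 passed an adjusted p of 0.05. With the leukocyte covariate the values that turned were 0.051 for Ifngr1, -0.0038 for Ifngr2, -0.012 for Jak1, 0.046 for Jak2, -0.28 for Tyk2 and -0.24 for Socs1. With the muscle covariate they were -0.011 for Ifngr2 and 0.058 for Jak2, with thinned counts -0.028 for Ifnar1 and 0.016 for Jak2, and with library totals 0.019 for Jak2. Leaving out 1 library at a time gave -0.064 to 0.048 for Ifnar1, -0.0019 to 0.13 for Jak1, -0.081 to 0.053 for Jak2, -0.069 to 0.23 for Tyk2, 0.71 to 1.26 for Socs1 and 0.21 to 0.33 for Ifnar2. The number of set genes at an unadjusted p under 0.05, 2 in the main analysis, was 1 with DESeq2, 1 with thinned counts, 0 with either covariate and 0 to 2 without single libraries (0 without control replicate 2). Genes called over the whole table numbered 54 with DESeq2 and 0 to 3 without single libraries, the 3 being without anti-LAIR1 replicate 2. The Ifng difference of 0.256 CPM was 0.0509 CPM with thinned counts, which came from 1 random draw. Without single libraries it was 0.147 to 0.364 CPM, 0.147 without control replicate 3. The cause of these changes was not tested. Depth limits what can be detected for the ligands.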
